A study of Homo sapiens with 6 samples.

Results

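The genes described here are 47 interferon-stimulated genes, a group that includes the 3 chemokine ligands of the receptor CXCR3. They were chosen by gene symbol from a list and make up 47 of the 24000 gene entries in the deposited table. No cutoff on a measured value was applied, but the list was chosen with earlier results of these data known. All 47 were listed, each with 1 entry. The tumors were xenografts of PC-3, a human prostate cancer cell line that grows without androgens, in athymic nude mice, which lack a thymus and therefore most T cells. RNA was sequenced from 3 tumors whose hosts received vehicle and 3 whose hosts received WCE, a standardized extract of the herb Wedelia chinensis, and the labels give 10 weeks of treatment for both groups and no dose. In the study's methods, PC-3 cells carrying luciferase were injected into the anterior prostate of young male mice. All 6 tumors thus came from the same cell line, and the labels do not say whether any mice were littermates or shared a cage. The values are FPKM, a count of sequenced fragments scaled to the length of the transcript and to the size of the library.

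Interferons are secreted proteins that cells release when they sense foreign or misplaced nucleic acid. Type I interferons bind the receptor IFNAR1/IFNAR2, and the kinases JAK1 and TYK2 then activate the complex ISGF3, which contains STAT2 and IRF9 and binds the interferon-stimulated response element (ISRE) in the promoters of its targets. Interferon gamma, a type II interferon, acts on the gamma-activated site (GAS) and drives genes such as IRF1, the guanylate-binding proteins and CXCL9. In tumors, CXCL9, CXCL10 and CXCL11 are known for attracting T cells and natural killer cells that carry CXCR3.

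Most of the members whose promoter could be matched share the ISRE core there. Because the members were listed as interferon-stimulated genes, this describes the list and is no result about these tumors. Promoter sequences, from 250 bases before to 50 bases after the start site, were matched in RefSeq (GRCh38.p14) for 37 of the 47 members. The 10 without an entry were IRF7, DHX58, IFIT2, OAS2, OASL, MX2, TRIM22, USP18, IFITM2 and GBP2. The core of the ISRE was searched on both strands as GAAA, then any 2 bases (NN), then GAAA. It was found in 23 of the 37 promoters, or 62.2%, against 3.65% of all 27305 promoters of the same length. The core of the GAS, searched as TTCNNNGAA (the same on both strands), was found in 11 of the 37, or 29.7%, against 7.88% of all promoters. The 2 motifs can overlap each other, and a match describes the letters only. The 12 windows below, 1 per member and chosen for genes whose values are given later, show the bases around the core, which the search itself fixed. Where a promoter holds more than 1 core, only 1 copy is shown, and the others can differ at the NN bases, as in ISG15. Each is read on the strand that carries the ISRE core, with that core in capitals.

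ISG15, chr1:1013380-1013409, plus strand: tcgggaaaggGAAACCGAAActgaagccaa
IFIT1, chr10:89392510-89392539, minus strand: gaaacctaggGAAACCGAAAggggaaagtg
IFI6, chr1:27672288-27672317, minus strand: ggagagagggGAAAATGAAActgcagagtg
IFI27, chr14:94110618-94110647, minus strand: cattttccagGAAACCGAAActgcagacat
MX1, chr21:41420559-41420588, plus strand: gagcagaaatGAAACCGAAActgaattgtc
OAS3, chr12:112938321-112938350, plus strand: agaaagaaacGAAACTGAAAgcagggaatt
IFIH1, chr2:162318686-162318715, minus strand: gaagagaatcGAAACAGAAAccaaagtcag
EPSTI1, chr13:42992272-42992301, minus strand: ctgattctgaGAAACCGAAActcagctgtt
IFITM3, chr11:320876-320905, minus strand: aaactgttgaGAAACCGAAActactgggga
GBP1, chr1:89065316-89065345, plus strand: agagtaatatGAAACTGAAAgtacttcgtt
CXCL9, chr4:76007661-76007690, minus strand: ccatttatgtGAAATGGAAAtaaaaacatg
CXCL10, chr4:76023699-76023728, minus strand: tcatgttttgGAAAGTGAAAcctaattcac

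Whole promoters are given for ISG15, an abundant member, and CXCL10, one of the most variable between tumors. In ISG15 the core occurs 2 times in overlap, so the capitals run through both copies, and in CXCL10 it occurs 1 time, far from the start site.

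ISG15, chr1:1013247-1013546, plus strand: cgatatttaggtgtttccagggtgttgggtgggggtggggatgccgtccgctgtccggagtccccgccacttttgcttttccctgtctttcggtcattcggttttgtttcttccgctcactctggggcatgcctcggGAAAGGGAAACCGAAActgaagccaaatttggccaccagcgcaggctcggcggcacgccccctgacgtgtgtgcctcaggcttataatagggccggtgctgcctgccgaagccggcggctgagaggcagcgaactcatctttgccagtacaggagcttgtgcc
CXCL10, chr4:76023448-76023747, minus strand: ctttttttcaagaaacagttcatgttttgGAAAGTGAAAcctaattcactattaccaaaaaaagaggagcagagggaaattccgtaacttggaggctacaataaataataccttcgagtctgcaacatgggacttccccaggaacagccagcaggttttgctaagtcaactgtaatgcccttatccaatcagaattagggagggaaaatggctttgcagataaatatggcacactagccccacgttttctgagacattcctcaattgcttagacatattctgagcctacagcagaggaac

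Before the comparison, the libraries themselves need a description. The absolute depth is unknown, and the steps between low values put the relative depth at 25.0% in WCE replicate 1 and between 64.8% and 85.2% in the other 4 tumors, with vehicle replicate 3 set to 100%. Vehicle replicate 3 and WCE replicate 1 were nearly alike although they carry different treatments. Over the 45 members tested, they differed by a median of 0.038 on the log2 scale and by at most 0.21 (ISG20). The remaining 14 pairs of tumors differed by medians of 0.157 to 1.15. The main results, but not every value, are therefore also given without both. The tumor cell markers KRT8, KRT18, EPCAM and VIM were present, with summed levels of 1013 to 1236 FPKM, and the androgen-driven gene KLK3 was listed at 0 in all 6 tumors.

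Most of the interferon-stimulated genes were expressed in every tumor. Of the 47 members, 7 had a mean of at least 100 FPKM over the 6 tumors, 29 lay between 10 and 100 FPKM, 9 between 0.5 and 10 FPKM, and 2 below 0.5 FPKM. The highest means were those of IFITM3 (873 FPKM), IFI6 (679 FPKM), ISG15 (560 FPKM), IFI27 (388 FPKM) and IFITM1 (290 FPKM). FPKM is scaled to transcript length, so levels of different genes can be set side by side, except where near-identical genes such as IFITM1, IFITM2 and IFITM3 can exchange reads. The 2 members under 0.5 FPKM were the RNA helicase DHX58, which was at 0.0222 FPKM in WCE replicate 2 and listed at 0 in the other 5 tumors, and CXCL9, which lay between 0.0603 and 0.391 FPKM. They were left out of the tests, which covered 45 members.

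To ask whether WCE treatment was accompanied by a change in this program, the 3 WCE-treated tumors were compared with the 3 vehicle-treated tumors by limma. The scale was log2(FPKM + 1), and 13287 entries reached the required mean of 0.5 FPKM. No member passed the test. With Benjamini-Hochberg adjustment over all entries, 0 of 45 members had an adjusted p under 0.05 by limma, where 0.00753% of all entries did. At an unadjusted p under 0.05 the count was also 0 of 45, against 7.1% of all entries (3.78% higher and 3.33% lower in WCE-treated tumors), and an unmoderated test also gave 0. The count was 1 without WCE replicate 1 (2.22%, against 15.3% of all entries) and 2 without vehicle replicate 1 (4.44%, against 3.18%). With limma array weights it was 9 (20.0%), where 3201 of the 13287 entries, or 24.1%, had such a p. The lowest unadjusted p of a member was 0.0967 and the adjusted p by limma ran from 0.623 to 0.990. The mean was lower in WCE-treated tumors for 31 members and higher for 14, or 31.1%, beside 48.6% of all entries. The median log2 fold change of the 45 members was −0.13, against −0.01 over all entries, and without vehicle replicate 3 and WCE replicate 1 it was −0.22 with 14 members above 0. Single tumors decided the sign of this median. It was −0.53 without vehicle replicate 1 (4 members above 0) and −0.35 without WCE replicate 1 (9 above 0), but 0.06 without vehicle replicate 2 (28 above 0), 0.03 without vehicle replicate 3 (23 above 0) and 0.12 without WCE replicate 2 (34 above 0). These values do not show that the groups were equal, because the median member had a 95% interval of ±0.77 on the log2 scale. In bulk tumor RNA, fewer cells expressing a gene and less RNA per cell cannot be told apart.

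**Figure D1:**
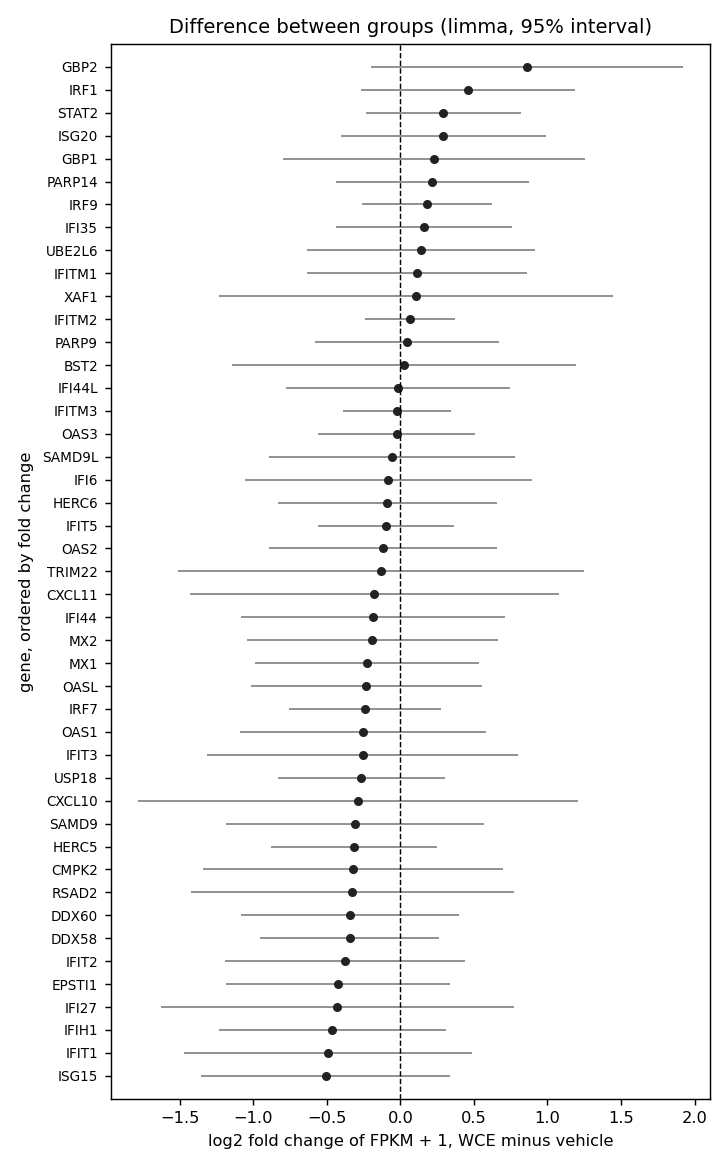
Log2 fold change of FPKM + 1 (WCE minus vehicle, horizontal axis) of the 45 members tested, ordered by size, with points for the estimate and lines for the 95% interval by limma (3 tumors per group). The estimates run from −0.51 in ISG15 to 0.86 in GBP2 and every interval includes 0.

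The members varied more within the treatment groups than most entries did. In 45 of 45 members the difference between group means was smaller than the range of the 3 vehicle-treated tumors, which holds for 84.1% of all entries. A range and a difference of means are unlike measures, so this count alone says little about the members. The median range within the vehicle group was 1.09 on the log2 scale for the members and 0.31 for all entries, and within the WCE group it was 0.94 and 0.25. A vehicle range of at least 1 was found in 29 of 45 members (64.4%) against 3.36% of all entries, and a WCE range of at least 1 in 20 of 45 (44.4%) against 3.89%. The highest tumor was at least 2 times the lowest in 39 of 45 members (86.7%) against 18.0% of all entries. This ratio ran from 1.35 in IFITM2 to 8.25 in GBP2, with a median of 2.71. Among the members with a matched promoter, its median was 2.85 in the 23 with an ISRE core and 2.45 in the 14 without, and the ranges overlapped. The 23 include CXCL9, which was left out of the tests and had the highest ratio among them, 6.48.

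**Figure D2:**
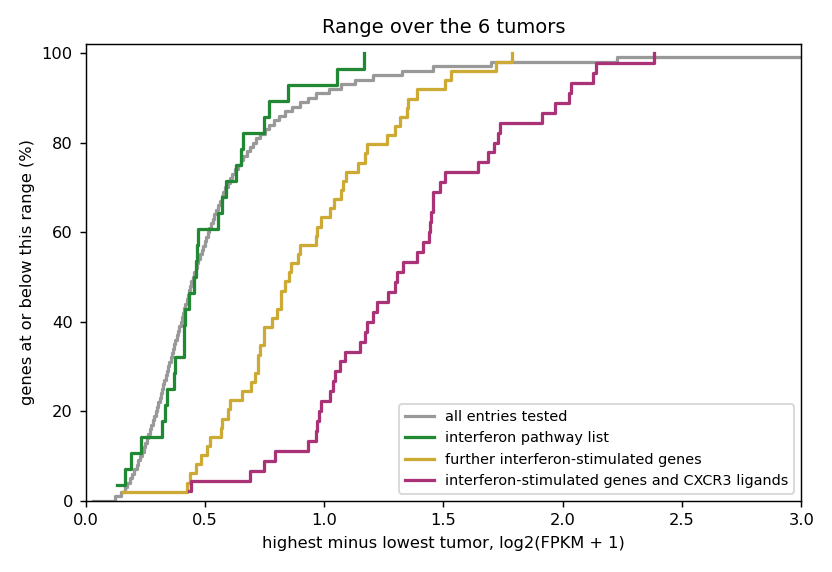
Share of genes (%, vertical axis) whose highest and lowest of the 6 tumors differ by no more than the value on the horizontal axis, in log2(FPKM + 1), for the 45 members, the 49 further interferon-stimulated genes, the 28 genes of the interferon pathway list and all 13287 entries tested. Up to the top few percent of genes, the curve of the members lies farthest to the right, that of the further genes lies between, and that of the pathway list lies close to all entries.

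The same tumors were low throughout. Vehicle replicate 1 was the lowest vehicle-treated tumor in 44 of 45 members, against 36.2% of all entries, and WCE replicate 2 the lowest WCE-treated tumor in 43 of 45, against 29.4% of all entries. In 43 of 45 members (95.6%) these were the lowest 2 of the 6 tumors, as they were in 6.69% of all entries. This pair of tumors was singled out after the values had been seen. The lowest of the 6 values lay in vehicle replicate 1 for 23 members, in WCE replicate 2 for 21 and in vehicle replicate 3 for IFITM2. The highest lay in vehicle replicate 2 for 29 members (64.4%), against 16.5% of all entries. Measured from the mean of the 6 tumors, the median log2 deviation of the members was −0.62 in vehicle replicate 1, 0.53 in vehicle replicate 2 and 0.32 in vehicle replicate 3. In WCE replicates 1, 2 and 3 it was 0.34, −0.61 and 0.07. Over all entries it stayed between −0.01 and 0.01 in every tumor. Without vehicle replicate 3 and WCE replicate 1, vehicle replicate 1 and WCE replicate 2 were the lowest 2 of the remaining 4 tumors in 44 of 45 members, against 9.8% of all entries. The median difference between the remaining vehicle-treated tumors was then 1.08 on the log2 scale, and that between the remaining WCE-treated tumors 0.57, against 0.20 and 0.11 over all entries. WCE replicate 3 was above vehicle replicate 2 in 9 of 45 members, against 6427 of all 13287 entries. Within the WCE group, replicate 1 was highest in 37 of 45 members (82.2%, against 38.2% of all entries). WCE replicate 3 was highest there in 8 (17.8%, against 25.7%).

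**Figure D3:**
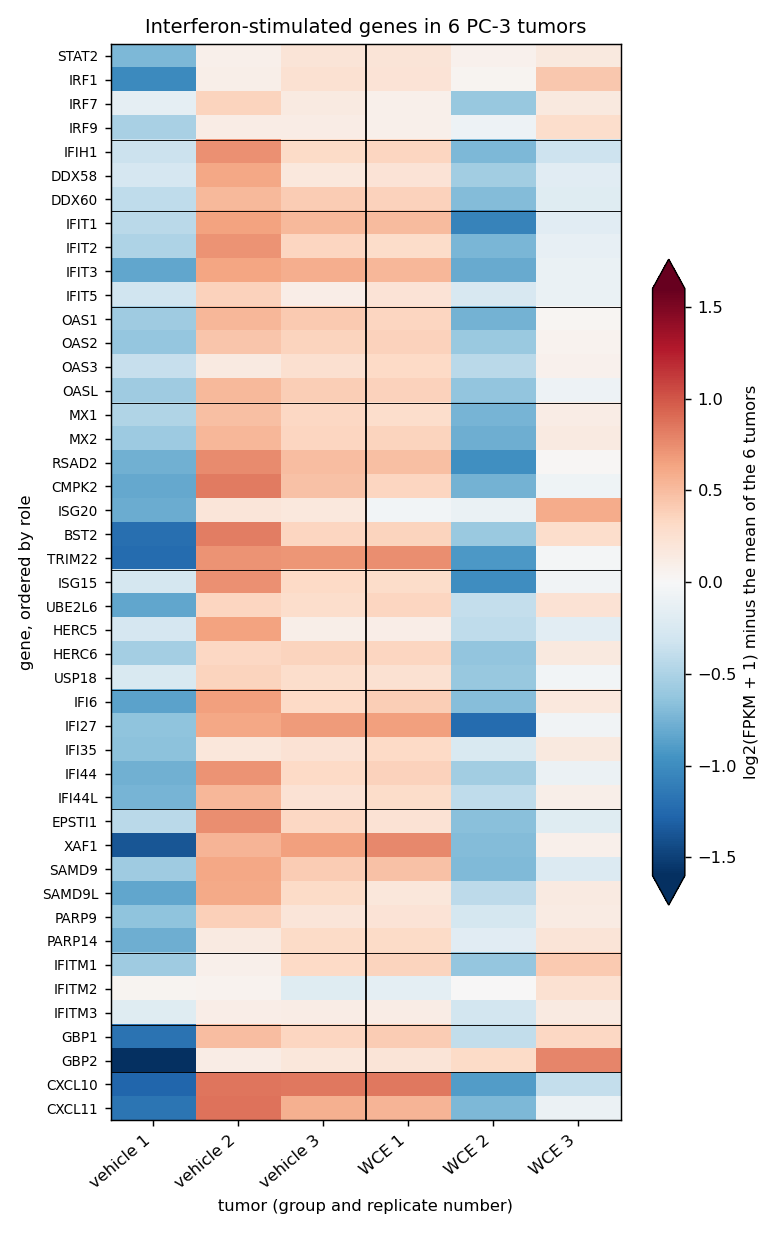
Log2(FPKM + 1) of the 45 members tested (rows, ordered by role and parted by lines) in the 6 tumors (columns), each as the difference from the gene's mean over the 6 tumors, in blue where lower and red where higher. Vehicle 1 and WCE 2 are blue in nearly every row, vehicle 2, vehicle 3 and WCE 1 are red, and IFITM2 stays near 0.

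**Figure D4:**
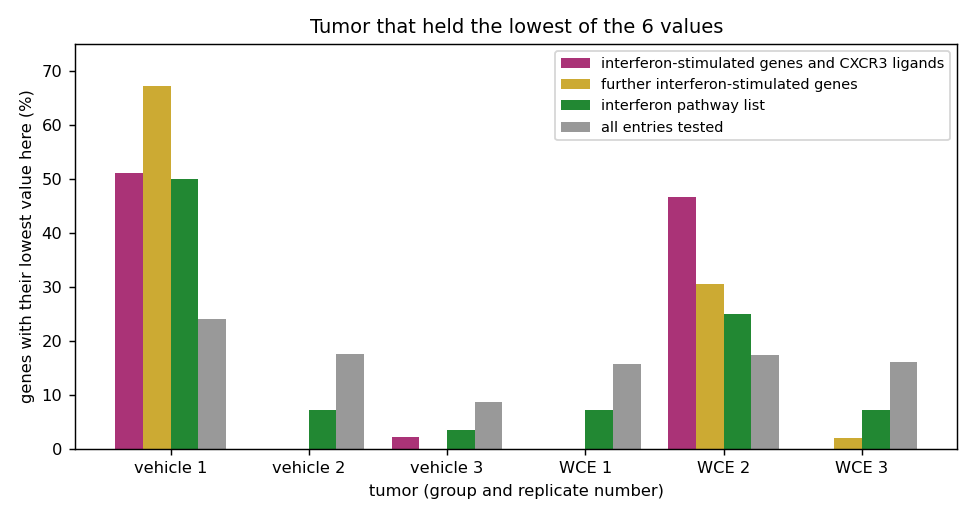
Share of genes (%, vertical axis) that had the lowest of their 6 values in each tumor (horizontal axis), for the 45 members, 49 further interferon-stimulated genes, 28 interferon pathway genes and all 13287 entries tested. Of the members, 51.1% were lowest in vehicle 1 and 46.7% in WCE 2, against 24.1% and 17.4% of all entries, and of the pathway genes 50.0% and 25.0%.

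Other measures moved in part with this order of the tumors, and their part in it was not tested. The relative depth was 64.8% in vehicle replicate 1 and 85.2% in WCE replicate 2, whereas the shallowest library, WCE replicate 1, was among the high tumors. The summed level of 9 leukocyte markers was between 25.8 and 41.5 FPKM in vehicle-treated and between 40.7 and 44.7 FPKM in WCE-treated tumors, nearly all of it CD68. Without CD68 the other 8 markers summed to 0.507, 1.47 and 1.56 FPKM in vehicle replicates 1 to 3 and to 2.12, 1.10 and 0.854 FPKM in WCE replicates 1 to 3. PTPRC, the pan-leukocyte gene, was at 0.106, 0.480 and 0.588 FPKM and at 0.666, 0.207 and 0.122 FPKM in the same order, and TYROBP was listed at 0 throughout. The 7 T and natural killer cell markers summed to at most 0.747 FPKM in any tumor, with CD3E at 0, and the 3 markers of plasmacytoid dendritic cells, a cell type known for making interferon, were listed at 0 in all 6. The summed level of 6 fibroblast markers was 42.1 to 56.4 FPKM in the vehicle group, and in the WCE group it was 12.8 FPKM in replicate 2 and 53.7 and 55.9 FPKM in the others. Most of each sum was COL1A1 and COL3A1, at 10.4 and 1.81 FPKM in WCE replicate 2. The 5 endothelial markers summed to 1.20 FPKM in vehicle replicate 1 and to between 3.21 and 7.60 FPKM in the other 5 tumors. Most of each sum was PECAM1 and KDR, and KDR alone was at 5.12 FPKM in WCE replicate 3, the tumor with the highest sum. In a xenograft, leukocytes, vessels and fibroblasts come from the mouse host, whereas these entries are human genes. How reads from mouse host cells were handled is not given in the sources used here. The sums and zeros therefore do not measure how many such cells a tumor held. By flow cytometry, the study reported fewer myeloid cells in PC-3 tumors of WCE-treated mice.

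The transcription factors of the pathway varied by 1.75 to 3.05 times between tumors. STAT2, a subunit of ISGF3, was at 19.7, 34.9 and 38.3 FPKM in the vehicle group and at 38.5, 34.9 and 36.9 FPKM in the WCE group. Only vehicle replicate 1 stood low, and WCE replicate 2, low for most other members, was level with the rest. IRF9, the DNA-binding partner of STAT2, was at 36.3, 56.9 and 56.7 FPKM against 55.1, 49.2 and 63.6 FPKM, with the groups overlapping. IRF1, an activator that responds strongly to interferon gamma, was at 5.36, 12.8 and 14.2 FPKM in the vehicle group and 14.1, 12.3 and 16.4 FPKM in the WCE group. Its lowest value was again that of vehicle replicate 1, and the log2 fold change of 0.46 (standard error 0.31) came with an adjusted p of 0.655 by limma. IRF7, which amplifies type I interferon production, differed in that WCE replicate 2 was lowest. It was at 28.0, 40.1 and 34.5 FPKM against 33.0, 20.0 and 34.7 FPKM. The log2 fold changes of the 4 factors ran from −0.24 in IRF7 to 0.46 in IRF1, and the lowest unadjusted p by limma was 0.181.

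The 3 cytosolic RNA sensors tested were lower on average in WCE-treated tumors, and none passed the test. IFIH1, which encodes the sensor MDA5 for long double-stranded RNA, was at 8.36, 18.7 and 13.7 FPKM in the vehicle group and 14.1, 6.24 and 8.47 FPKM in the WCE group. The groups overlapped over most of their range, and the log2 fold change was −0.46 (95% interval −1.23 to 0.31). DDX58, the gene of the sensor RIG-I, and DDX60, a related helicase, had log2 fold changes of −0.35 and −0.34. In all 3 genes vehicle replicate 2 was the highest tumor and WCE replicate 2 the lowest.

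The IFIT proteins bind viral RNA and block its translation, and their 4 genes lie side by side on chromosome 10. IFIT1, listed from 91152322 to 91163744 on that chromosome in the table, was at 54.6, 116 and 106 FPKM in vehicle-treated and 105, 34.8 and 65.2 FPKM in WCE-treated tumors. The high and low tumors of both groups were interleaved, and the estimate of −0.49 on the log2 scale (standard error 0.42) had an adjusted p of 0.707 by limma. IFIT2 was at 16.4, 39.6 and 30.1 FPKM against 29.3, 13.8 and 21.5 FPKM, with a log2 fold change of −0.38. IFIT3 and IFIT5 had log2 fold changes of −0.26 and −0.10. IFIT5 varied least of the family, by 1.69 times between its highest and lowest tumor, against 3.34 times in IFIT1.

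The OAS genes encode enzymes that make 2′-5′-linked oligoadenylates and so switch on RNase L, with OASL as a relative that lacks this activity. All 4 had lower means in WCE-treated tumors, with log2 fold changes between −0.25 in OAS1 and −0.03 in OAS3 and unadjusted p of 0.503 or more by limma. OAS2, for example, was at 26.2, 56.0 and 52.6 FPKM in the vehicle group and 53.1, 26.8 and 42.6 FPKM in the WCE group, so that vehicle replicate 1 and WCE replicate 2 were at the same level. Their highest and lowest tumors differed by 1.71 to 2.52 times.

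Among the other antiviral effectors, MX1, a GTPase that traps viral nucleocapsids, was at 61.1, 119.8 and 108 FPKM against 104, 50.8 and 93.2 FPKM in vehicle-treated and WCE-treated tumors. RSAD2 (viperin) and its neighbor CMPK2 varied more, by 3.71 and 3.34 times between tumors, and MX2 by 2.77 times. BST2 (tetherin), which holds virus particles at the cell surface, was at 66.4, 273 and 195 FPKM in the vehicle group and 197, 102 and 187 FPKM in the WCE group. Its range of 4.12 times between tumors stood beside a log2 fold change of 0.03 (standard error 0.50). TRIM22, an antiviral ubiquitin ligase, was at 4.61, 20.6 and 20.5 FPKM against 21.0, 5.96 and 11.9 FPKM. ISG20, an RNA exonuclease, was highest in WCE replicate 3, at 47.4 FPKM, and lowest in vehicle replicate 1, at 17.5 FPKM. The log2 fold changes of these 7 genes ran from −0.33 to 0.29, with unadjusted p of 0.360 or more by limma.

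ISG15 is a ubiquitin-like protein that is joined to newly made proteins by UBE2L6 and HERC5 and removed by USP18. The ISG15 gene, listed on chromosome 1 from 948847 to 949919, was at 429.7, 872 and 651 FPKM in vehicle-treated tumors against 643, 262 and 503 FPKM in WCE-treated tumors. The lowest tumor was WCE replicate 2 and the highest vehicle replicate 2, and the group means of 651 ± 221 and 469 ± 192 FPKM (SD, n = 3 each) differed by less than the spread within each group. Its log2 fold change of −0.51 (standard error 0.36, 95% interval −1.35 to 0.34, adjusted p = 0.662 by limma) was the most negative of all members tested, and without vehicle replicate 3 and WCE replicate 1 the ISG15 log2 fold change was −0.75. HERC5, USP18 and HERC6 had log2 fold changes of −0.31, −0.27 and −0.09, and UBE2L6, which carries ISG15 to the ligase, of 0.14. All 5 genes were lowest in vehicle replicate 1 or WCE replicate 2.

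The IFI genes are strongly induced by type I interferon, and here they varied by 2.04 to 3.78 times between tumors. IFI27, a mitochondrial protein gene, was at 221, 529.8 and 554 FPKM in the vehicle group and 544, 146 and 332 FPKM in the WCE group. IFI6, which restrains cell death, was at 350.0, 997 and 791 FPKM against 831, 394 and 711 FPKM. IFI44 was at 35.3, 101 and 75.9 FPKM against 78.8, 41.0 and 56.6 FPKM, and IFI44L was parallel at a lower level. The log2 fold changes were −0.43 in IFI27, −0.19 in IFI44, −0.08 in IFI6 and −0.02 in IFI44L, and with upper-quartile scaling the IFI44L log2 fold change was 0.0027. IFI35, which joins NMI in a cytosolic complex, had a log2 fold change of 0.16. The lowest unadjusted p of the 5 was 0.432 by limma.

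**Figure D5:**
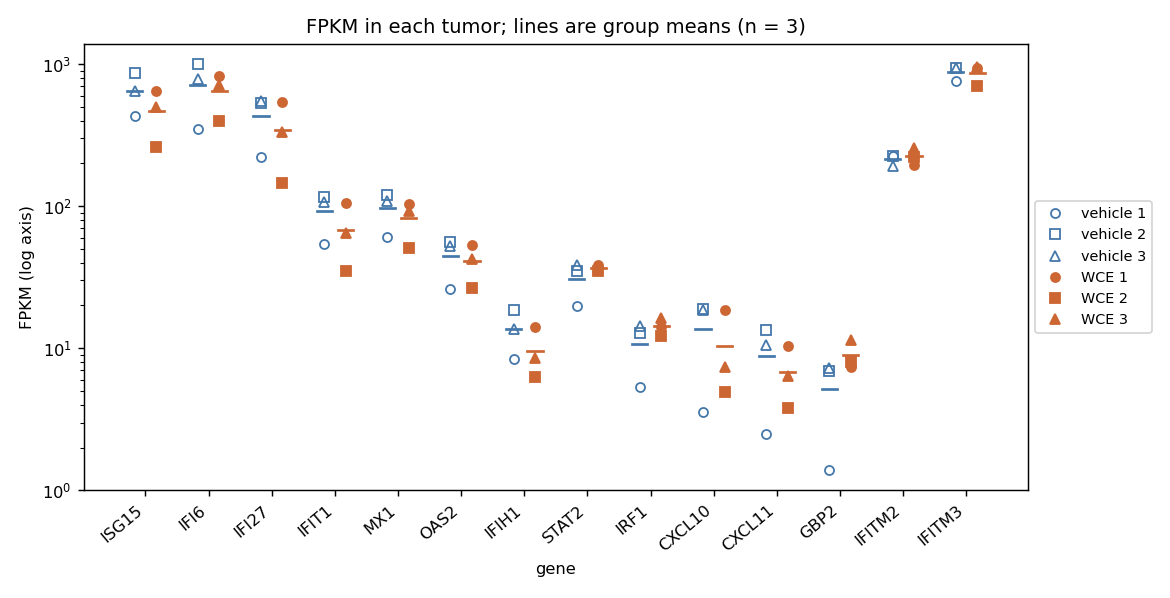
FPKM on a log axis of 14 members in each of the 6 tumors, with open symbols for vehicle-treated and filled symbols for WCE-treated tumors, the symbol shape for the replicate number and lines for group means (n = 3). Vehicle 1 and WCE 2 are the lowest tumors of their groups in most genes, while IFITM2 and IFITM3 vary by less than 1.5 times.

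Genes of cell death, growth control and ADP-ribosylation split in sign. EPSTI1 was at 2.94, 7.84 and 5.64 FPKM in vehicle-treated and 5.23, 2.32 and 3.61 FPKM in WCE-treated tumors, with a log2 fold change of −0.43. XAF1, which antagonizes the apoptosis inhibitor XIAP, was at 1.23, 7.40 and 8.08 FPKM against 8.84, 2.57 and 5.07 FPKM. Between tumors XAF1 varied by 7.16 times, while its group means were 5.57 ± 3.77 and 5.49 ± 3.16 FPKM (SD, n = 3 each). SAMD9 and SAMD9L, neighbors on chromosome 7 that restrain growth and poxvirus replication, had log2 fold changes of −0.31 and −0.06. PARP9 and PARP14, genes of the PARP family, had log2 fold changes of 0.05 and 0.22 and varied by 2.07 and 2.18 times between tumors. The locus of PARP9 is shared with 1 other entry, DTX3L.

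The IFITM genes encode small membrane proteins that block the entry of enveloped viruses, and 2 of them varied little between tumors. IFITM2 was at 224, 227 and 191 FPKM in the vehicle group and 196, 220.2 and 258 FPKM in the WCE group, and the tumors that were low for the other members were not low here. IFITM3 was at 758, 934 and 941 FPKM against 940.4, 705 and 957 FPKM, so that the low tumors were the same but the ratio of highest to lowest was 1.36. IFITM1 varied more, at 188, 294 and 346 FPKM against 357, 181 and 373 FPKM. The log2 fold changes lay between −0.02 and 0.11.

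The guanylate-binding proteins are GTPases that attack pathogen-containing vacuoles and are induced above all by interferon gamma. GBP2 was the member with the largest difference and the only 1 of 45 in which the groups did not overlap. It was higher in all WCE-treated tumors, against 6.37% of all entries that were separated in this direction, and 0 members were separated in the other, against 6.4%. GBP2 was at 1.39, 6.92 and 7.27 FPKM in vehicle-treated and 7.41, 7.97 and 11.5 FPKM in WCE-treated tumors. The border ran between the nearly alike libraries, 7.27 FPKM for vehicle replicate 3 on one side and 7.41 FPKM for WCE replicate 1 on the other. The log2 fold change was 0.86 (standard error 0.45, 95% interval −0.20 to 1.92, adjusted p = 0.623 by limma). Without both libraries the log2 fold change was 1.28, and without vehicle replicate 1, the 1 very low tumor, it was 0.28. GBP1, its neighbor on chromosome 1, was at 3.27, 12.7 and 11.3 FPKM against 11.9, 6.42 and 11.2 FPKM, with WCE replicate 2 low as in most members and a log2 fold change of 0.23. Under limma array weights the sign for GBP1 turned.

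The CXCR3 ligands were among the most variable members between tumors. CXCL10 was at 3.54, 18.9 and 18.7 FPKM in the vehicle group and at 18.7, 4.89 and 7.44 FPKM in the WCE group, and CXCL11 at 2.50, 13.3 and 10.6 FPKM against 10.4, 3.79 and 6.38 FPKM. In both genes vehicle replicate 1 was lowest and vehicle replicate 2 highest, with a ratio of 5.33 in CXCL10 and 5.34 in CXCL11. The log2 fold changes were −0.29 (standard error 0.64, 95% interval −1.78 to 1.21) and −0.18 (standard error 0.54, 95% interval −1.43 to 1.08). Without vehicle replicate 3 and WCE replicate 1 the CXCL10 log2 fold change was −0.43 and the CXCL11 log2 fold change −0.25. In the fits that left out 1 tumor they ranged from −0.99 to 0.09 and from −0.80 to 0.21. The table lists both genes at the same locus, together with 1 other entry, on chromosome 4 from 76932333 to 77033955, so how overlapping reads were assigned is not known. CXCL9, which depends most on interferon gamma, was at 0.0603, 0.129 and 0.391 FPKM against 0.390, 0.115 and 0.195 FPKM, far below CXCL10 in every tumor. Their receptor CXCR3 was at 0.0380 FPKM in WCE replicate 2 and listed at 0 in the other 5 tumors, and DPP4, a surface protease that trims and inactivates the ligands, was at 15.5 to 26.7 FPKM.

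Genes upstream of the members were counted from a list of 51 interferons, receptors, kinases, sensors and inhibitors, of which 28 passed the filter. The median range of these 28 within the vehicle group was 0.33 on the log2 scale, close to the 0.31 of all entries. Vehicle replicate 1 and WCE replicate 2 were the lowest 2 tumors in 3 of 28 (10.7%), against 6.69% of all entries. Vehicle replicate 1 was the lowest of the 6 tumors in 14 of 28 (50.0%), against 24.1% of all entries. WCE replicate 2 was the lowest in 7 of 28 (25.0%, against 17.4%). Among the 21 interferon genes, 13 were listed at 0 in all 6 tumors, 7 were above 0 in at least 1 tumor with a mean under 0.5 FPKM, and IFNE, an epithelial type I interferon, was at 3.14 to 5.54 FPKM. IFNB1, the gene of interferon beta, was listed at 0 in vehicle replicate 1 and at 0.260 to 0.885 FPKM in the other tumors. IFNA1, IFNA7, IFNW1 and IFNL2 were also at 0 in vehicle replicate 1, whereas IFNL1 (0.334 FPKM) and IFNL3 (0.191 FPKM) were not. IFNL1 was at 0.334, 0.288 and 0.360 FPKM in the vehicle group and at 0, 0.0845 and 0.0901 FPKM in the WCE group. These are low values, and IFNG was listed at 0 in every tumor.

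The receptors of type I and type II interferon and the kinase JAK1 were present in all 6 tumors. IFNAR1 lay between 12.5 and 14.2 FPKM, IFNAR2 between 7.97 and 12.9 FPKM, IFNGR1 between 18.9 and 28.2 FPKM and IFNGR2 between 35.2 and 40.4 FPKM. JAK1 lay between 15.1 and 19.8 FPKM.

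In the comparison of the groups, an unadjusted p under 0.05 by limma was reached by 4 of the 28 pathway genes, 2 higher and 2 lower, and an adjusted one by 0. The share of 14.3% stands beside 7.1% of all entries, and the lowest adjusted p was 0.623. TMEM173, the gene of the DNA sensor adaptor STING, was at 5.92, 8.69 and 10.4 FPKM in vehicle-treated and 10.7, 12.3 and 13.4 FPKM in WCE-treated tumors (log2 fold change 0.52, standard error 0.19). TYK2 was at 24.1, 23.2 and 31.0 FPKM against 31.8, 32.6 and 32.4 FPKM (log2 fold change 0.31). PTPN2, a phosphatase that turns off JAK-STAT signaling, was at 63.8, 53.9 and 46.0 FPKM against 45.1, 40.3 and 40.2 FPKM (log2 fold change −0.36). IL10RB, a receptor subunit for interferon lambda and IL10, was at 16.6, 13.1 and 12.6 FPKM against 11.5, 10.7 and 11.4 FPKM (log2 fold change −0.30). The groups did not overlap in these 4 genes or in JAK2, which makes 2 of 28 higher (7.14%, against 6.37% of all entries) and 3 of 28 lower (10.7%, against 6.4%). In the 4 genes vehicle replicate 3 and WCE replicate 1 were the tumors nearest the border. Without these libraries the log2 fold changes were 0.76, 0.44, −0.53 and −0.39. By the unmoderated test 0 of the 28 genes had a p under 0.05, against 4.46% of all entries. The limma count was 0 without WCE replicate 2 (1.77% of all entries) or without WCE replicate 3 (1.65%). It was 1 without vehicle replicate 1 (3.18%) and 2 without vehicle replicate 2 (2.61%).

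A further list of interferon-stimulated genes that are not members showed the same order of tumors more weakly. All 52 of its genes were listed, some under older symbols, and 49 were tested. Vehicle replicate 1 and WCE replicate 2 were the lowest 2 tumors in 34 of 49 (69.4%), against 6.69% of all entries, and the median range within the vehicle group was 0.73. The median log2 fold change was 0.03, with 28 of 49 above 0. An unadjusted p under 0.05 by limma was found in 3 of 49 (6.12%, against 7.1% of all entries), all higher in WCE-treated tumors, and an adjusted one in 0. SLFN11, which blocks stressed replication forks, was at 0.278, 0.678 and 0.570 FPKM in the vehicle group and 0.531, 2.70 and 2.33 FPKM in the WCE group (log2 fold change 0.83). RNF213, a large ubiquitin ligase, was at 7.80, 10.3 and 13.2 FPKM against 14.1, 12.9 and 14.5 FPKM (0.40 on the same scale). MOV10, an RNA helicase, was at 8.59, 10.8 and 11.9 FPKM against 11.8, 14.7 and 14.0 FPKM (0.35 on the same scale). In each of the 3 genes the groups overlapped. Without vehicle replicate 3 and WCE replicate 1 the log2 fold changes of SLFN11, RNF213 and MOV10 were 1.26, 0.56 and 0.53. The count of 3 was 0 without vehicle replicate 2, WCE replicate 2 or WCE replicate 3 (1.65% to 2.61% of all entries). It was 8 without WCE replicate 1 (15.3% of all entries) and 0 by the unmoderated test (4.46%).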

How the data were processed

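The authors deposited 1 table of FPKM values, with gene entries as rows, tumors as columns and Cufflinks-style entry names. The submitters' processing notes name TopHat2 2.0.13, Cufflinks, hg19 and mm10, without roles. Annotation, filters and scaling between tumors are not given in the sources used here. Read counts were not used here. Libraries were made from total RNA with a stranded mRNA kit.

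Columns were matched to tumors by their labels. Listed loci are given counted from 1, and the table names no build. Promoter coordinates are GRCh38.p14. Entries on alternative haplotypes were left out of the gene lists. The filter kept 13287 of 24000 entries, those whose mean over 6 tumors reached 0.5 FPKM. Groups were compared with limma 3.58.1 (R 4.3.3) on log2(FPKM + 1) with a mean-variance trend, two-sided, with Benjamini-Hochberg adjustment. A fold change on this scale understates that of low genes. No counting interval is given because the depth is unknown. The p-values assume independent tumors, which vehicle replicate 3 and WCE replicate 1 may not be.

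Named members were those with a p under 0.05, the CXCR3 ligands, the 4 transcription factors, the 5 highest by mean and the 8 with the largest fold change. MX1, OAS2, BST2, TRIM22, XAF1, IFI44, IFITM2, GBP1 and ISG20 were named after their values were seen, as were single values of other members. The values of 1 gene of the pathway list are not reported here. The members and lists were chosen with earlier results of these data known. Alternatives were the pseudocount, filters, scaling, variance models, array weights, a replicate block and left-out tumors, with the order of tumors without both nearly alike libraries added after seeing the data. The fit was tested on simulated data. Python 3.11.15, numpy 2.4.6, pandas 2.3.3 and matplotlib 3.10.9 were used.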

Additional observations from a re-analysis of the deposited data

How the results depend on the processing

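No member had an adjusted p under 0.05 by limma in any setting run. At an unadjusted p under 0.05 the count of members was 0 as reported. It was 1 with a replicate block (GBP2, 2.22% of the 45), where the setting gave 7.89% of all entries. With limma array weights it was 9 (8 lower and GBP2 higher, 20.0% of the 45), where the setting gave 24.1% of all entries. The array weights were 4.00 for WCE replicate 3 and 0.408 for vehicle replicate 1. With array weights 9 members were above 0 instead of 14, and BST2 (−0.27), XAF1 (−0.32), PARP9 (−0.12), UBE2L6 (−0.027) and the GBP1 log2 fold change (−0.011) turned. Upper-quartile scaling turned the IFI44L log2 fold change (0.0027). The cause was not tested.

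Leaving out 1 tumor moved the median log2 fold change of the members from −0.53 (without vehicle replicate 1) to 0.12 (without WCE replicate 2), the number above 0 from 4 to 34, and the number at an unadjusted p under 0.05 from 0 to 2, namely CMPK2 and EPSTI1 without vehicle replicate 1. IFIH1 was the 1 without WCE replicate 1. The shares of all entries were 3.18% without vehicle replicate 1 and 15.3% without WCE replicate 1. The direction of 32 of the 45 members changed in at least 1 of these 6 fits. Their ranges were IRF7 −0.38 to 1.1e-05, IRF9 −0.029 to 0.29, IFIT3 −0.73 to 0.081, IFIT5 −0.29 to 0.059, OAS1 −0.60 to 0.064, OAS2 −0.46 to 0.15, OAS3 −0.22 to 0.18 and OASL −0.57 to 0.029. The next were MX1 −0.52 to 0.088, MX2 −0.53 to 0.15, RSAD2 −0.79 to 0.081, CMPK2 −0.81 to 0.014, ISG20 −0.035 to 0.46, BST2 −0.57 to 0.44, TRIM22 −0.78 to 0.29 and UBE2L6 −0.24 to 0.36. The next were HERC6 −0.38 to 0.21, IFI6 −0.53 to 0.24, IFI27 −0.86 to 0.083, IFI35 −0.13 to 0.32, IFI44 −0.61 to 0.13, IFI44L −0.39 to 0.24, XAF1 −0.55 to 0.48 and SAMD9L −0.48 to 0.23. The next were PARP9 −0.26 to 0.25, PARP14 −0.12 to 0.43, IFITM1 −0.14 to 0.45, IFITM2 −0.039 to 0.16, IFITM3 −0.13 to 0.12, GBP1 −0.31 to 0.54, CXCL10 −0.99 to 0.090 and CXCL11 −0.80 to 0.21.

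The pathway list had 4 genes at an unadjusted p under 0.05, against 0 with the unmoderated test, 7 with array weights, 8 without vehicle replicate 3 and WCE replicate 1 together, and 0 to 5 with 1 tumor left out. Its median ranged from −0.05 to 0.03 in the latter. The further list had 3, against 0, 15, 6 and 0 to 8, with a median from −0.21 to 0.15 with 1 tumor left out. Over all entries the number at an adjusted p under 0.05 was 1, 0 with the unmoderated test, 5 without both nearly alike libraries and 1 to 7 with 1 tumor left out. For all entries at an unadjusted p under 0.05 the number was 944, 593 with the unmoderated test, 3201 with array weights, 2449 without both libraries and 219 to 2033 with 1 tumor left out.

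For tumors that share a replicate number, deviations from the group means correlated at −0.24, 0.16 and −0.093 for numbers 1, 2 and 3, so the numbers were not taken as pairs. The replicate block raised GBP2 over the unadjusted threshold (log2 fold change 0.86) and changed no other call of a member.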
